A study of Mus musculus with 12 samples.

Results

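Interferon-stimulated genes are genes that cells switch on when an interferon binds its receptor, and 37 of them, named by symbol in a list, were followed here across 4 groups of mouse RNA-seq libraries. Of these, 35 were found in both deposited count tables, which together name 27821 genes, and all 35 passed the count filter in both tables. The other 2, Mx1 and Mx2, were not analysed here. Xap5, whose gene symbol is Fam50a, encodes a nuclear protein, and it was deleted with a Cre driven by the adiponectin promoter, which is active in mature adipocytes. White adipose tissue (WAT) was taken at postnatal day 42 from wild-type mice (WT, 3 libraries) and from the conditional knockout (cKO, 3 libraries). Cultured adipocytes came from pre-adipocytes of sWAT of newborn WT mice (3 libraries) or knockout mice (labelled KO, 3 libraries) and were sequenced after 8 days of adipogenic induction with insulin, dexamethasone and IBMX. The sex of the mice, the depot of the tissue libraries and whether each library came from its own animal or culture are not stated in the labels, so the p-values measure the spread between these libraries, which may be technical. WAT also holds blood vessel, immune and stromal cells in which this Cre is not active, and the culture is a mixture in which only cells that have reached the adiponectin-expressing stage are targeted.

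Type I interferons (the interferon alphas and interferon beta) bind a receptor made of Ifnar1 and Ifnar2, whose kinases Jak1 and Tyk2 pass the signal on by phosphorylation. Stat2 and Irf9 are parts of the complex that then binds the interferon-stimulated response element (ISRE) in promoters. Interferon gamma signals through Ifngr1 and Ifngr2 with Jak1 and Jak2, and the factors it activates bind the gamma-activated site (GAS). In adipose tissue both adipocytes and resident macrophages can respond to interferon, and many of the induced genes are also transcribed at a low level without it.

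Library totals were 28844370 to 33997204 counts in WAT and 10863158 to 21773610 counts in culture. Levels are given as CPM, the usual scaled share of a library's counts, with totals corrected by edgeR's TMM factors, and with the 3 libraries of a group always in the order replicate 1, 2, 3. Fam50a itself stood at 35.3, 32.5 and 36.5 CPM in WT and 23.3, 16.8 and 28.9 CPM in cKO (log2 fold change -0.60, SE 0.20, adjusted p = 0.0395), with every cKO library below every WT library. In culture Fam50a stood at 57.9, 52.01 and 45.2 CPM in WT and 46.2, 42.9 and 41.1 CPM in KO, the groups overlapped and the difference did not pass the test (log2 fold change -0.26, SE 0.12, adjusted p = 0.134). How far these reads fall inside the deleted part of the gene is not known. Adipoq, the adiponectin gene and a mature adipocyte marker, was read in all 12 libraries, at 614 to 5370.0 CPM in WAT and 1967 to 3036 CPM in culture. Macrophage markers were also read in all 12, so neither the tissue nor the culture was adipocyte RNA alone.

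Promoters were searched for the 2 elements in RefSeq windows of GRCm38.p6 that run from 250 bases before to 50 after a gene's start, on both strands. Windows were given for 29 of the 37 members, 36 windows in all. The ISRE core (GAAA, any 2 bases, GAAA) was present in 18 of the 29 members and in 52.8% of their windows, against 3.44% of all 32851 windows. The GAS core (TTC, any 3 bases, GAA) was present in 10 of the 29 members and in 27.8% of their windows, against 8.3% of all windows. The 2 motifs can overlap, and a match to these letters is a description, not evidence of binding. The 250 bases upstream of the start are shown for 6 members, 5′ to 3′ on the gene's strand, because they span the ways in which the members moved, and capitals mark the bases of every ISRE match. Isg15, Ifit1 and Oas1a carry several matches, and Rsad2, Stat2 and Igtp carry 1. Isg15 and Ifit1 were higher in cKO WAT and did not pass in culture, Oas1a, Rsad2 and Stat2 were higher in cKO WAT and lower in KO culture, and Igtp was lower in cKO WAT. The regions are chr4:156200819-156201068, minus strand, for Isg15, chr19:34640639-34640888, plus strand, for Ifit1, chr5:120907526-120907775, minus strand, for Oas1a, chr12:26456453-26456702, minus strand, for Rsad2, chr10:128270248-128270497, plus strand, for Stat2, and chr11:58199306-58199555, plus strand, for Igtp.
Isg15: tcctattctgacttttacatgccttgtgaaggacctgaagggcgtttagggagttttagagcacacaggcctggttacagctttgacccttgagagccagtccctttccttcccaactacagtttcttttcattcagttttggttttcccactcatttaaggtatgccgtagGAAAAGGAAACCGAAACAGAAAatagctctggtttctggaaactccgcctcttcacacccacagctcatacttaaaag
Ifit1: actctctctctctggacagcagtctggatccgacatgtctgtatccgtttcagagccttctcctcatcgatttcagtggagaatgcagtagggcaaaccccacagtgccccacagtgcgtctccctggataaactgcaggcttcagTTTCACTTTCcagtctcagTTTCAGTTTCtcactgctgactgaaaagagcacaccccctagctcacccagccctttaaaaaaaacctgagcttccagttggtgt
Oas1a: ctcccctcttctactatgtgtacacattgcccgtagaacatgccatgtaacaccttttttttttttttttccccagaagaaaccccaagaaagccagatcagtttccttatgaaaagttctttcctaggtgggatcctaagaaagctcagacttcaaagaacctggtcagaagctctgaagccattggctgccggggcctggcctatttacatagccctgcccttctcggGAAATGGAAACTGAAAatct
Rsad2: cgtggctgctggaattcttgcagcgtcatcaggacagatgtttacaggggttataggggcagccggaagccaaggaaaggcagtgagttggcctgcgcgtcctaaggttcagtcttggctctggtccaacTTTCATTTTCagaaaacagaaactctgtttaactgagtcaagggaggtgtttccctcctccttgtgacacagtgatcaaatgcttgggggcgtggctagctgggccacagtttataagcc
Stat2: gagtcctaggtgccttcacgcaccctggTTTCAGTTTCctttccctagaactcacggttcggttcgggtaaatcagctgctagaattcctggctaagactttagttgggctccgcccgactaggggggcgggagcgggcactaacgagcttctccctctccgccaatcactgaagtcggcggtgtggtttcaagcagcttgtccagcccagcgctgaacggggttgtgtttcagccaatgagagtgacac
Igtp: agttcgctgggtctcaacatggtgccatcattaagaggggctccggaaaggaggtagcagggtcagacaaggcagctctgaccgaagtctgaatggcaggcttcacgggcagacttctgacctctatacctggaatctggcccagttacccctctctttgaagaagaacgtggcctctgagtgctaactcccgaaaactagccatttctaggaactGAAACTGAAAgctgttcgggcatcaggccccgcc
In Isg15 the 3 matches overlap and run from 78 to 57 bases before the start site, in Ifit1 they begin 104 and 85 bases before it, and in Oas1a the 2 overlap from 20 to 5 bases before it. The single matches of Rsad2, Stat2 and Igtp begin 120, 222 and 34 bases before it. Of the 18 members with an ISRE match, 13 were higher and 1 lower in cKO WAT, and 4 were lower in KO culture. Of the 11 with a window and no match, 8 were higher and 2 lower in cKO WAT, and 6 were lower in KO culture. The proportion higher in cKO WAT was thus about the same with and without a match. Of all genes tested by edgeR, 28.2% were higher and 24.2% lower in cKO WAT, and 10.6% were lower in KO culture.

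In WAT most of the interferon-stimulated genes stood higher in the knockout. Tested with edgeR's quasi-likelihood test and Benjamini-Hochberg adjustment over all 16293 genes, 26 of the 35 rose and 3 fell at an adjusted p under 0.05, where 28.2% of all genes tested rose and 24.2% fell. Their median log2 fold change was 1.01, against 0.12 over all genes tested. In 27 of the 35 every cKO library was above every WT library, as in 35.1% of all genes tested, and in 3 every cKO library was below, as in 29.3%. The range of log2 fold changes was -1.27 (Igtp) to 3.78 (Ifi204). Because these are bulk tissue libraries, a change in the share of a cell type and a change in RNA per cell cannot be told apart. Scaling by library size alone, which moved the all-gene median up by 0.68 on the log2 scale, gave 30 members higher and none lower, where 54.2% of all genes rose and 8.76% fell. Removing a trend over transcript length and GC content gave 20 higher and 2 lower, where 17.9% of all genes rose and 29.5% fell. The log2 fold changes of the 7 calls lost by it were Irf9 0.38, Ifi35 -0.27, Ifih1 0.42, Xaf1 0.33, Gbp7 0.17, Parp14 0.33 and Cmpk2 0.56. With library size alone Igtp and Isg20 lost theirs, at -0.59 and -0.21.

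**Figure D1:**
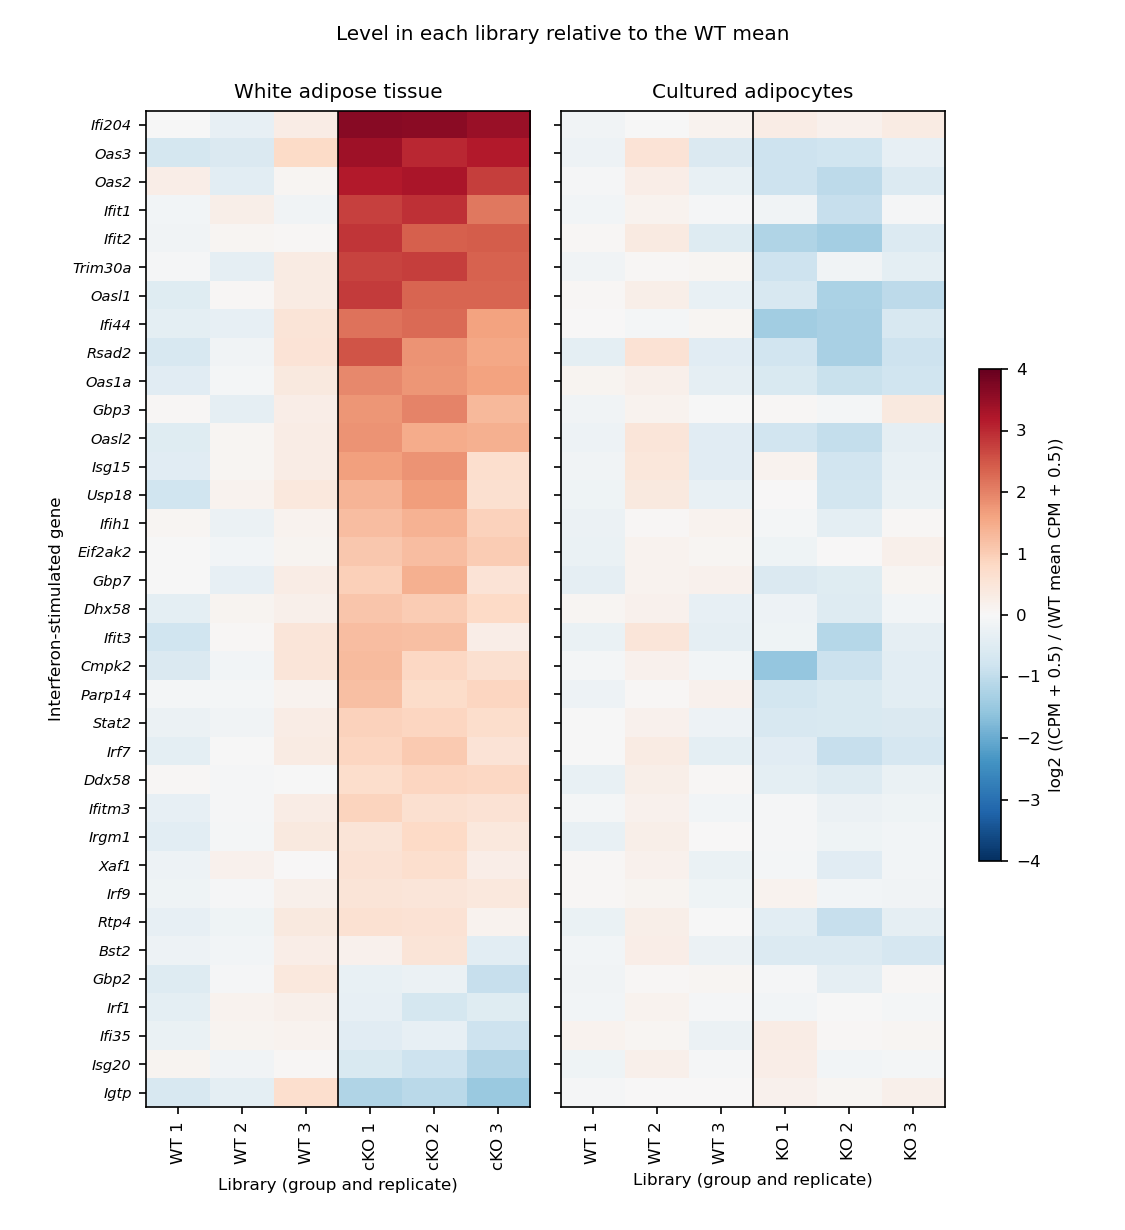
Level of each of the 35 interferon-stimulated genes in each of the 12 libraries, as log2 of (CPM + 0.5) over (mean WT CPM + 0.5) of the same table, with WAT on the left and culture on the right. Most rows are above the WT mean in the 3 cKO WAT libraries and close to or below it in the KO culture libraries, and WT replicate 2 of the culture is the highest WT library for 27 genes.

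Of the enzymes that sense or act on viral RNA, 9 of 9 rose in cKO WAT, with a median log2 fold change of 1.59. Of all genes tested in WAT 28.2% rose. The 2′-5′ oligoadenylate synthetases make the small messenger that activates RNase L. Oas2 (chr5:120730333-120749886) stood at 9.15, 5.47 and 7.89 CPM in WT and 71.7, 76.7 and 53.8 CPM in cKO (log2 fold change 3.17, SE 0.24, adjusted p = 0.000434). Oas3 stood at 0.915, 1.04 and 3.43 CPM in WT and 23.4, 18.1 and 20.2 CPM in cKO (log2 fold change 3.51, SE 0.51, adjusted p = 0.00176), and Oas1a at 14.6, 19.4 and 26.9 CPM in WT and 77.8, 70.8 and 63.5 CPM in cKO (log2 fold change 1.80, SE 0.23, adjusted p = 0.00114). In all 3 genes the lowest cKO library was above the highest WT library, and in Oas2 the gap was the widest in CPM. Oas2, Oas3 and Oas1a lie on chromosome 5, with 3.21 kb between Oas2 and Oas3 and 119 kb between Oas3 and Oas1a. The synthetase-like genes Oasl1 and Oasl2, 10.9 kb apart on the same chromosome, moved the same way. Oasl1 (chr5:114923143-114937911) stood at 5.66, 8.304 and 10.3 CPM in WT and 58.6, 42.8 and 42.3 CPM in cKO (log2 fold change 2.57, SE 0.25, adjusted p = 0.000633). Oasl2 stood at 20.3, 29.8 and 35.3 CPM in WT and 100.1, 80.4 and 77.2 CPM in cKO (log2 fold change 1.59, SE 0.22, adjusted p = 0.00152). No cKO library overlapped the WT libraries in either.

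The cytosolic RNA helicases rose by smaller amounts. Ddx58, which encodes RIG-I, was one of the most evenly measured members, at 32.6, 30.5 and 31.3 CPM in WT and 51.7, 57.8 and 56.9 CPM in cKO (log2 fold change 0.82, SE 0.11, adjusted p = 0.00137). Ifih1, which encodes MDA5, stood at 8.01, 6.43 and 8.39 CPM in WT and 18.5, 20.6 and 14.8 CPM in cKO (log2 fold change 1.24, SE 0.20, adjusted p = 0.002397). Dhx58, which encodes LGP2, a regulator of the other two helicases, had a log2 fold change of 1.01 (adjusted p = 0.00433). In all 3 helicases the cKO libraries stood clear of the WT libraries. Eif2ak2, which encodes the double-stranded RNA kinase PKR that shuts down translation, stood at 13.9, 12.9 and 15.1 CPM in WT and 29.9, 33.8 and 28.9 CPM in cKO (log2 fold change 1.14, SE 0.13, adjusted p = 0.000894).

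Among the antiviral effectors 6 of 9 rose and 1 fell, where 28.2% of all genes tested rose and 24.2% fell. The effectors' median log2 fold change was 0.98. The Ifit genes encode proteins that bind foreign RNA ends or block translation initiation, and 3 of them lie within a stretch of chromosome 19. Ifit2 (chr19:34550550-34576534) stood at 3.01, 3.59 and 3.51 CPM in WT and 27.5, 19.8 and 20.3 CPM in cKO (log2 fold change 2.74, SE 0.21, adjusted p = 0.000434). Ifit1 stood at 1.74, 2.295 and 1.65 CPM in WT and 15.4, 17.7 and 9.92 CPM in cKO (log2 fold change 2.91, SE 0.29, adjusted p = 0.000644). In both genes every cKO library was several times above every WT library. Ifit3, 6.58 kb from Ifit2, stood at 26.4, 47.1 and 64.6 CPM in WT and 109.7, 108 and 55.7 CPM in cKO, and its groups overlapped because cKO replicate 3 was below WT replicate 3 (log2 fold change 0.98, SE 0.37, adjusted p = 0.05896). Its reads may be shared with the close copy Ifit3b. Rsad2, which encodes viperin, stood at 6.45, 9.47 and 15.4 CPM in WT and 61.5, 37.9 and 31.6 CPM in cKO (log2 fold change 2.06, SE 0.37, adjusted p = 0.00377). Cmpk2, a mitochondrial nucleotide kinase whose gene lies 12.7 kb away, stood at 13.7, 19.3 and 29.1 CPM in WT and 50.7, 37.4 and 32.5 CPM in cKO (log2 fold change 0.96, SE 0.29, adjusted p = 0.0287). In this pair cKO replicate 1 was the highest library and the cKO libraries did not overlap the WT libraries. Trim30a, a ubiquitin ligase that restrains Toll-like receptor signalling, stood at 6.71, 5.299 and 8.72 CPM in WT and 47.4, 49.5 and 37.6 CPM in cKO (log2 fold change 2.70, SE 0.22, adjusted p = 0.000486). All 3 of its cKO libraries were far above its WT libraries. Ifitm3, a membrane protein that blocks virus entry and the member with the highest CPM, stood at 129, 155 and 200.2 CPM in WT and 301, 251 and 243 CPM in cKO (log2 fold change 0.72, SE 0.19, adjusted p = 0.0163), with all cKO libraries above all WT libraries. Bst2, which encodes the virion-retaining protein tetherin, stood at 139, 146 and 191 CPM in WT and 178, 229 and 118 CPM in cKO with overlapping groups (log2 fold change 0.14, SE 0.25, adjusted p = 0.664). Isg20, a 3′ exonuclease, was the effector that fell, at 17.1, 14.2 and 16.4 CPM in WT and 10.3, 8.72 and 6.796 CPM in cKO (log2 fold change -0.88, SE 0.20, adjusted p = 0.00952). Its highest cKO library was below its lowest WT library.

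Isg15, a ubiquitin-like modifier, and Usp18, the protease that removes it and also restrains the type I receptor, both rose. Isg15 (chr4:156199424-156200818) stood at 16.5, 24.1 and 28.02 CPM in WT and 72.5, 81.1 and 36.4 CPM in cKO (log2 fold change 1.47, SE 0.33, adjusted p = 0.00844), with cKO replicate 3 far below the other 2 cKO libraries yet above all WT libraries. Usp18 had a log2 fold change of 1.32 (adjusted p = 0.0206), and cKO replicate 3, at 27.3 CPM, was again the lowest of its group.

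The interferon-inducible GTPases act on the vacuoles of intracellular pathogens. Of the 5, 2 were higher, 1 was lower and 2 did not pass, where 28.2% of all genes tested rose and 24.2% fell. Gbp3 stood at 8.76, 6.43 and 10.2 CPM in WT and 29.7, 34.9 and 21.3 CPM in cKO (log2 fold change 1.76, SE 0.25, adjusted p = 0.00155), and its neighbour Gbp7 at 7.14, 5.67 and 9.01 CPM in WT and 14.5, 20.5 and 10.9 CPM in cKO (log2 fold change 1.07, SE 0.29, adjusted p = 0.0176), with no overlap in either. Gbp2, 47.4 kb from Gbp3, stood at 64.3, 89.7 and 125 CPM in WT and 75.8, 79.9 and 49.2 CPM in cKO and did not pass (log2 fold change -0.45, SE 0.28, adjusted p = 0.213). Igtp, an immunity-related GTPase also called Irgm3, was the member with the steepest fall, at 31.3, 37.6 and 79.4 CPM in WT and 21.2, 23.02 and 17.5 CPM in cKO (log2 fold change -1.27, SE 0.35, adjusted p = 0.0186). WT replicate 3 was about 2-fold above the other WT libraries, and all cKO libraries were below all WT libraries. A second row of the WAT table under the same symbol stood at 31.6, 37.9 and 78.9 CPM in WT and 20.2, 23.0 and 9.36 CPM in cKO, close to the first row in all libraries but cKO replicate 3, where it was lower, so reads of Igtp may be split between rows. Irgm1 had a log2 fold change of 0.59 (adjusted p = 0.0625) and also has further rows.

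Of the 4 transcription factors 3 rose, where 28.2% of all genes tested rose. Stat2 and Irf9 belong to the ISRE-binding complex. Stat2 stood at 32.2, 34.4 and 46.1 CPM in WT and 72.3, 68.8 and 61.9 CPM in cKO (log2 fold change 0.85, SE 0.16, adjusted p = 0.00496), with no overlap, and Irf9 had a log2 fold change of 0.48 (adjusted p = 0.0204). Irf7, the factor that amplifies interferon alpha transcription, stood at 65.3, 83.2 and 106 CPM in WT and 153, 174 and 123 CPM in cKO (log2 fold change 0.82, SE 0.21, adjusted p = 0.0149), with all cKO libraries above all WT libraries. Irf1, a factor induced strongly by interferon gamma, stood at 91.6, 130.5 and 137 CPM in WT and 94.6, 72.5 and 84.4 CPM in cKO and did not pass (log2 fold change -0.51, SE 0.19, adjusted p = 0.05199).

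Of the 6 remaining members 4 rose and 1 fell, where 28.2% of all genes tested rose and 24.2% fell. Ifi204 (chr1:173747293-173767069), a nuclear DNA-binding protein of the p200 family known from macrophages, had the smallest p of all members, at 2.83, 2.17 and 3.64 CPM in WT and 41.95, 40.5 and 36.4 CPM in cKO (log2 fold change 3.78, SE 0.22, adjusted p = 0.000347). Parp14, an ADP-ribosyltransferase, stood at 32.3, 32.3 and 37.6 CPM in WT and 78.2, 56.4 and 61.8 CPM in cKO (log2 fold change 0.94, SE 0.16, adjusted p = 0.002804). In both the lowest cKO library exceeded the highest WT library. Ifi44, the member with the lowest mean CPM, rose as well, at 1.52, 1.63 and 3.35 CPM in WT and 11.5, 12.2 and 7.57 CPM in cKO (log2 fold change 2.26, SE 0.38, adjusted p = 0.00287). Xaf1, an apoptosis-associated factor, had a log2 fold change of 0.53 (adjusted p = 0.0268), and Rtp4, a chaperone of membrane receptors, one of 0.46 (adjusted p = 0.1196). Ifi35, a partner of the transcriptional regulator Nmi, fell, at 69.7, 90.7 and 91.8 CPM in WT and 61.6, 66.7 and 47.4 CPM in cKO (log2 fold change -0.52, SE 0.18, adjusted p = 0.0405), with all cKO libraries below all WT libraries. Its sign turned with scaling by library size alone (log2 fold change 0.16). The members of the p200 family lie together and are alike in sequence, so reads of Ifi204 could be shared with its neighbours, and 2 further rows of the WAT table carry its symbol.

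Of the 29 calls in WAT, 9 were lost when 1 of the 6 libraries was left out. Igtp lost its call without cKO replicate 1, Irf7 without WT replicate 2 or cKO replicate 1, and Gbp7 without WT replicate 1 or 2. Cmpk2, Ifitm3 and Irf9 lost theirs without WT replicate 1, WT replicate 2 or cKO replicate 1. Usp18 lost it without WT replicate 2, cKO replicate 1 or cKO replicate 2, Xaf1 without WT replicate 1, WT replicate 3, cKO replicate 1 or cKO replicate 2, and Ifi35 without WT replicate 2, WT replicate 3, cKO replicate 1 or cKO replicate 3. Over these fits the log2 fold change ran from -1.51 to -0.75 for Igtp, 0.66 to 1.01 for Irf7, 0.78 to 1.26 for Gbp7, 0.73 to 1.28 for Cmpk2 and 0.57 to 0.90 for Ifitm3. It ran from 0.39 to 0.60 for Irf9, 1.03 to 1.59 for Usp18, 0.42 to 0.62 for Xaf1 and -0.65 to -0.40 for Ifi35. The number of members that rose was 20 to 28 over the 6 fits, and the number that fell 1 to 4, with 1 without cKO replicate 1. Igtp had a log2 fold change of -1.30 without that library, and its smallest one, -0.75, without WT replicate 3.

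**Figure D2:**
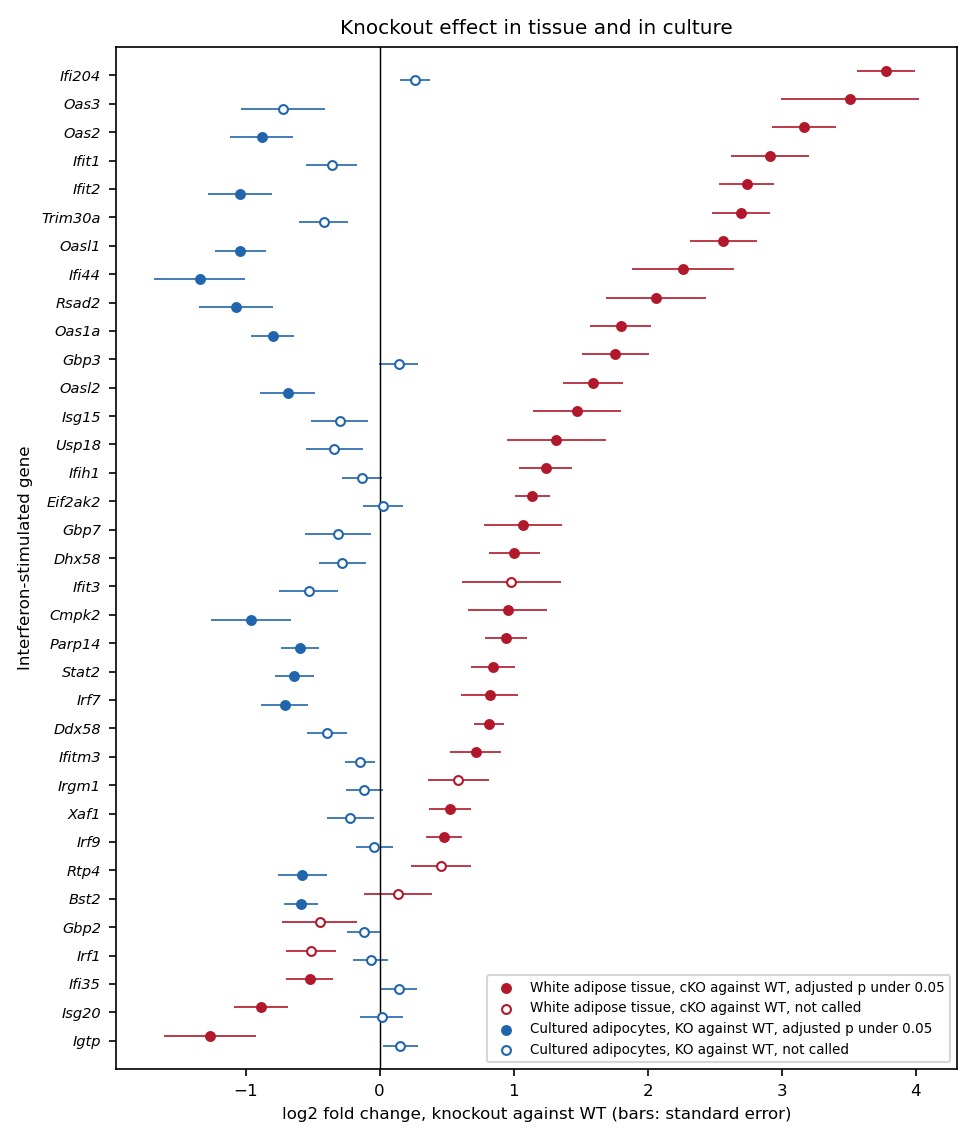
Log2 fold change of each of the 35 interferon-stimulated genes, cKO against WT in WAT and KO against WT in culture, with bars for the standard error and filled points for an adjusted p under 0.05 (edgeR). In WAT 26 filled points lie above 0 and 3 below, and in culture all 13 filled points lie below 0.

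In culture some of the same genes fell and none rose. By edgeR 13 of the 35 members fell and 0 rose, where 10.6% of all 12587 genes tested fell and 8.94% rose, and the other 22 did not pass. At an unadjusted p under 0.05 the counts were 17 lower and 1 higher, and both DESeq2 and voom called 13 lower and 0 higher. Their median log2 fold change was -0.36, against -0.02 over all genes tested. Every KO library was below every WT library in 13 members, as in 18.8% of all genes tested, and above in 2, as in 18%. The count of lower members rested on 2 libraries. Without WT replicate 2 it was 4, where 3.91% of all genes fell. Without KO replicate 2 it was 6, where 6.68% fell. Without both, an alternative chosen after seeing the data, it was 0, where 2.36% fell, and the members' median log2 fold change was -0.036. In 1 fit over all 4 groups, whose shared estimate of the spread is larger, it was also 0, where 0.608% fell.

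Among the RNA-sensing enzymes in culture 4 of 9 fell, where 10.6% of all genes tested fell. Oasl1 had the smallest p, at 14.7, 16.7 and 11.4 CPM in WT and 8.91, 5.67 and 6.67 CPM in KO (log2 fold change -1.04, SE 0.19, adjusted p = 0.000715). Oas1a stood at 23.1, 24.95 and 16.6 CPM in WT and 13.9, 11.4 and 12.1 CPM in KO (log2 fold change -0.80, SE 0.16, adjusted p = 0.00172), and Oas2 at 5.83, 7.31 and 4.83 CPM in WT and 3.19, 2.65 and 3.897 CPM in KO (log2 fold change -0.88, SE 0.23, adjusted p = 0.0107). In these 3 genes all KO libraries were below all WT libraries. Oasl2 stood at 16.05, 26.2 and 13.5 CPM in WT and 10.6, 9.43 and 14.4 CPM in KO, with KO replicate 3 above WT replicate 3 (log2 fold change -0.69, SE 0.20, adjusted p = 0.0206). Oas3, near the bottom of the level range, stood at 3.04, 5.46 and 2.22 CPM in WT and 1.78, 1.86 and 2.73 CPM in KO and did not pass (log2 fold change -0.72, SE 0.31, adjusted p = 0.104). The helicase genes and Eif2ak2 did not pass either, with log2 fold changes of -0.39 for Ddx58, -0.13 for Ifih1, -0.28 for Dhx58 and 0.027 for Eif2ak2.

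Among the antiviral effectors in culture 4 of 9 fell, where 10.6% of all genes tested fell. Ifit2 stood at 10.5, 13.1 and 6.97 CPM in WT and 4.13, 3.62 and 6.87 CPM in KO (log2 fold change -1.04, SE 0.24, adjusted p = 0.00416), while its neighbour Ifit1 stood at 14.1, 16.7 and 14.5 CPM in WT and 13.5, 7.71 and 14.5 CPM in KO and did not pass (log2 fold change -0.36, SE 0.19, adjusted p = 0.191). The virion-retaining Bst2 stood at 96.2, 126 and 88.3 CPM in WT and 71.3, 70.6 and 65.03 CPM in KO (log2 fold change -0.58, SE 0.12, adjusted p = 0.00241). Rsad2 stood at 4.65, 9.75 and 4.51 CPM in WT and 3.47, 2.28 and 3.36 CPM in KO (log2 fold change -1.07, SE 0.28, adjusted p = 0.00906), where WT replicate 2 was about 2-fold above the other WT libraries. Its neighbour Cmpk2 stood at 3.46, 4.28 and 3.41 CPM in WT and 0.938, 1.81 and 2.68 CPM in KO (log2 fold change -0.96, SE 0.30, adjusted p = 0.0274). In these 4 the KO libraries were all below the WT libraries, narrowly so in Ifit2. Trim30a stood at 9.799, 11.1 and 11.4 CPM in WT and 5.91, 9.75 and 8.09 CPM in KO and did not pass (log2 fold change -0.42, SE 0.19, adjusted p = 0.113). Ifitm3 stood at 254, 299 and 245 CPM in WT and 259, 228 and 234 CPM in KO, with overlapping groups (log2 fold change -0.15, SE 0.11, adjusted p = 0.377).

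Of the 4 transcription factors in culture, Stat2 and Irf7 fell, where 10.6% of all genes tested fell. Stat2 stood at 23.2, 26.6 and 20.1 CPM in WT and 14.7, 14.96 and 15.3 CPM in KO (log2 fold change -0.64, SE 0.15, adjusted p = 0.00398). Irf7 stood at 21.5, 27.7 and 16.5 CPM in WT and 15.9, 11.3 and 13.4 CPM in KO (log2 fold change -0.71, SE 0.18, adjusted p = 0.00695). Both had all KO libraries below all WT libraries, while Irf9 and Irf1 had log2 fold changes of -0.038 and -0.067 and did not pass. Parp14 stood at 27.2, 32.3 and 35.3 CPM in WT and 18.8, 20.4 and 23.5 CPM in KO (log2 fold change -0.59, SE 0.14, adjusted p = 0.00496), and Rtp4 at 12.5, 17.9 and 14.97 CPM in WT and 11.2, 7.66 and 11.8 CPM in KO (log2 fold change -0.58, SE 0.18, adjusted p = 0.0286). Ifi44 had few counts, at 2.53, 2.35 and 2.69 CPM in WT and 0.657, 0.743 and 1.46 CPM in KO (log2 fold change -1.34, SE 0.34, adjusted p = 0.00825). None of these 3 overlapped between groups. The DNA-binding Ifi204 stood at 92.2, 101 and 112 CPM in WT and 124, 116 and 127 CPM in KO, with all KO libraries above all WT libraries and no call (log2 fold change 0.26, SE 0.11, adjusted p = 0.0957). None of the 5 GTPases passed the edgeR test in culture (0 also at an unadjusted p under 0.05), and their log2 fold changes ran from -0.31 (Gbp7, at 3.63, 5.29 and 5.39 CPM in WT and 3.002, 3.298 and 5.07 CPM in KO) to 0.16 (Igtp).

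Oasl1, Oas1a and Parp14 passed in every one of the 6 fits that left out 1 culture library, and the other 10 did not. Without WT replicate 2 the calls of Bst2, Stat2, Ifit2, Irf7, Rsad2, Oas2, Oasl2, Cmpk2 and Rtp4 were lost, with log2 fold changes of -0.41, -0.52, -0.81, -0.49, -0.60, -0.70, -0.34, -0.83 and -0.42 in that order. Without KO replicate 2 the calls of Ifi44, Irf7, Rsad2, Oas2, Oasl2, Cmpk2 and Rtp4 were lost, with log2 fold changes of -1.14, -0.59, -0.88, -0.73, -0.55, -0.92 and -0.39. Oasl2 and Cmpk2 also lost theirs without KO replicate 1 (-0.64 and -0.73). All of these estimates remained negative.

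Set side by side, 11 members rose in cKO WAT and fell in KO culture. These were Oas1a, Oas2, Oasl1, Oasl2, Ifit2, Rsad2, Irf7, Stat2, Ifi44, Parp14 and Cmpk2. Of all genes tested 28.2% rose in WAT and 10.6% fell in culture, and the share that did both was not counted. Only Oas1a, Oasl1 and Parp14 kept their culture call in every fit that left out 1 culture library. No member was called lower in culture without replicate 2 of both culture groups, or in 1 fit over all 4 groups. A further 15 rose in WAT and did not pass in culture, Bst2 and Rtp4 fell in culture alone, Isg20, Ifi35 and Igtp fell in WAT alone, and Ifit3, Irf1, Gbp2 and Irgm1 passed in neither. No member fell in both. The difference between the 2 effects was tested as an interaction in 1 edgeR fit over the 4 groups with 14463 genes, although tissue and culture also differ in age, cell makeup and depth, and the tables were deposited apart. The knockout effect was higher in WAT than in culture for 29 members and lower for 3, where 27.7% of all genes tested were higher and 21.1% lower. The median difference was 1.54 on the log2 scale, against 0.22 over all genes tested. In order of p the first 8 differences were Ifi204 3.55 (SE 0.21, adjusted p = 8.29e-07), Oas2 4.08 (SE 0.33, adjusted p = 4.56e-06), Oasl1 3.63 (SE 0.34, adjusted p = 1.00e-05), Trim30a 3.16 (SE 0.30, adjusted p = 1.00e-05), Ifit2 3.82 (SE 0.39, adjusted p = 1.75e-05), Oas1a 2.63 (SE 0.30, adjusted p = 3.02e-05), Ifit1 3.30 (SE 0.38, adjusted p = 3.29e-05) and Parp14 1.57 (SE 0.22, adjusted p = 0.000104). Leaving out replicate 2 of both culture groups, the count was 21 higher and 2 lower, where 20.3% and 15.9% of all genes were. Igtp, Isg20 and Ifi35 were the 3 with the lower effect in WAT, and Bst2, Irf1 and Gbp2 did not pass.

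**Figure D3:**
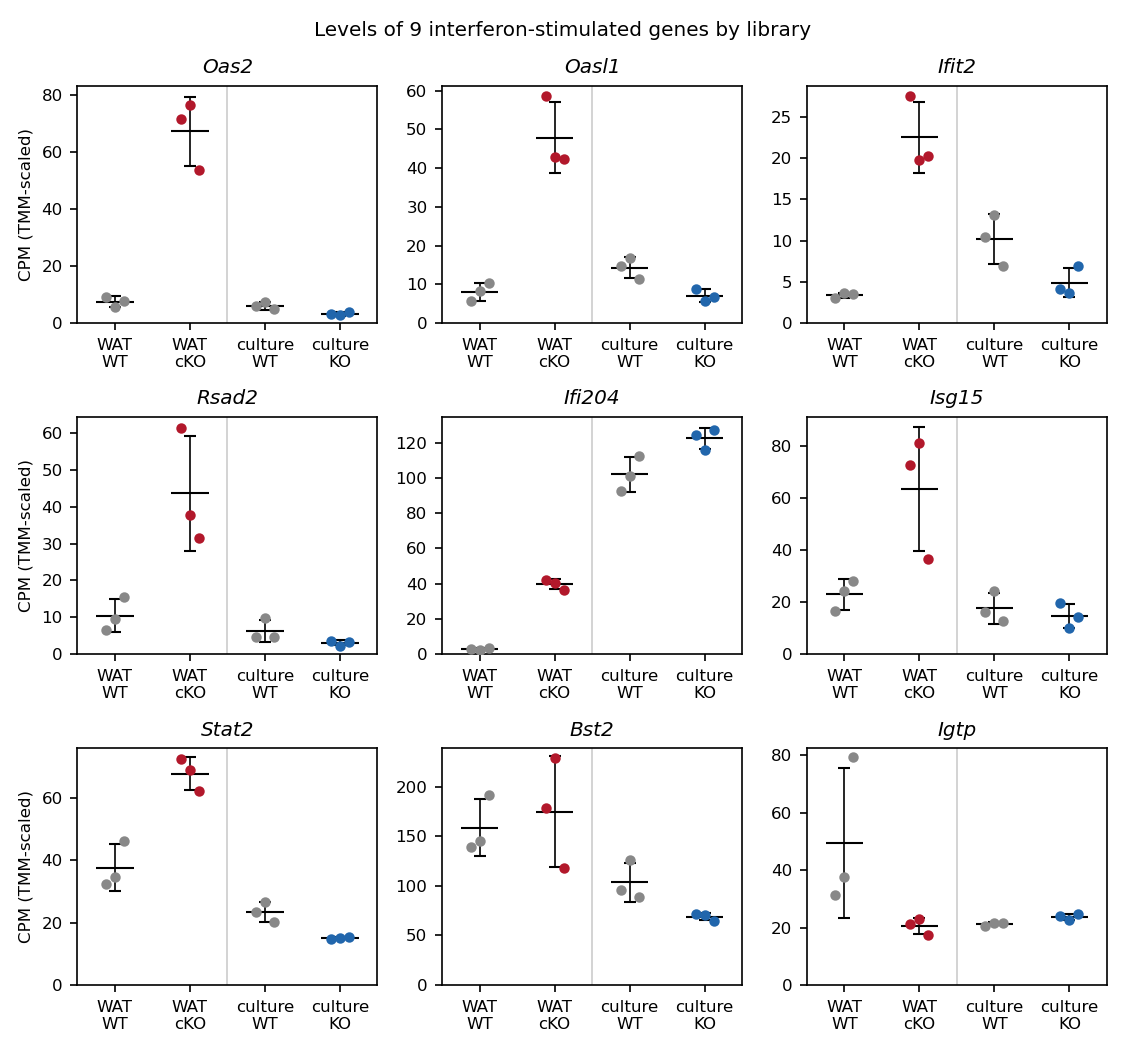
CPM (TMM-scaled, each axis starting at 0) of 9 interferon-stimulated genes in the 4 groups, with 1 point per library and a bar at the group mean. In Oas2, all 3 cKO WAT libraries (53.8 to 76.7 CPM) lie above the 3 WT WAT libraries (5.47 to 9.15 CPM), while the KO culture libraries (2.65 to 3.90 CPM) lie below the WT culture libraries (4.83 to 7.31 CPM).

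The libraries of a group differed from each other in the same direction for most members. In WAT, WT replicate 3 was the highest WT library for 29 of the 35 members and cKO replicate 3 the lowest cKO library for 30. The summed level of the 35 was 1021, 1239 and 1574 CPM in WT and 2268, 2213 and 1719 CPM in cKO, so the cKO libraries were all above the WT libraries with a narrow gap between cKO replicate 3 and WT replicate 3. In culture, WT replicate 2 was the highest WT library for 27 members and KO replicate 2 the lowest KO library for 24. The sums in culture were 968, 1182 and 973 CPM in WT and 943, 829 and 927 CPM in KO, all KO libraries lying below all WT libraries.

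Compared per length (CPM per kb of transcript), the members spanned a wide range of levels. In WT WAT the highest means were Ifitm3 at 238 and Bst2 at 200 CPM per kb, followed by Ifi35 at 61.7, Irf1 at 56.0 and Gbp2 at 37.0. The lowest were Oas3 at 0.381, Ifi44 at 0.533, Ifit1 at 0.714 and Ifit2 at 0.882 CPM per kb. In WT culture Ifitm3 at 392 and Bst2 at 131 CPM per kb were again the highest, with Ifi204 next at 44.4. The order within WAT shifted between genotypes, since Ifi204 stood at rank 31 of 35 in WT and 15 in cKO, and Igtp at rank 9 in WT and 26 in cKO.

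No interferon gene was read at a testable level. Of the 21 ligand genes in the tables none passed the count filter, 18 had no read in any WAT library and 19 none in any culture library. A count of 0 allows up to 0.068 to 0.131 CPM in the WAT libraries and 0.139 to 0.281 CPM in the culture libraries, and this limit covers counting error only. Ifnb1, the interferon beta gene, had 5 reads in cKO replicate 1 of WAT and none in the other 11 libraries. Ifng, the interferon gamma gene, had 9, 0 and 15 reads in WT WAT, 19, 6 and 3 in cKO WAT and none in culture.

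The receptor and signalling genes that sit above the members moved in both directions in WAT. Of 15, 10 were higher and 3 lower, where 28.2% of all genes tested rose and 24.2% fell. Their median log2 fold change was 0.63, where that of all genes was 0.12. For the type I receptor, Ifnar1 rose, at 60.8, 72.2 and 61.96 CPM in WT and 102, 98.3 and 101 CPM in cKO (log2 fold change 0.63, SE 0.12, adjusted p = 0.00426). Ifnar2, its partner, fell, at 212, 258 and 229 CPM in WT and 108, 109 and 89.6 CPM in cKO (log2 fold change -1.19, SE 0.14, adjusted p = 0.000905). Both chains were without overlap between groups and moved in opposite directions. For interferon gamma, Ifngr1 fell, at 251, 156 and 253 CPM in WT and 121, 151 and 111 CPM in cKO (log2 fold change -0.79, SE 0.22, adjusted p = 0.0207), and Ifngr2 rose, at 32.9, 39.6 and 35.5 CPM in WT and 77.1, 59.6 and 73.4 CPM in cKO (log2 fold change 0.96, SE 0.14, adjusted p = 0.00193). The call of Ifngr1 was lost with scaling by library size alone (log2 fold change -0.11) and without WT replicate 1, WT replicate 3, cKO replicate 1 or cKO replicate 3, with log2 fold changes of -0.98 to -0.67 over the 6 fits. Il10rb, a chain of the type III receptor, had a log2 fold change of 0.62 (adjusted p = 0.0395). The kinases Jak1, Jak2 and Tyk2 had log2 fold changes of 0.72 (adjusted p = 0.00356), 0.97 (adjusted p = 0.00528) and 0.53 (adjusted p = 0.0292). When 1 library was left out, Il10rb and Tyk2 passed only without cKO replicate 2 (log2 fold changes 0.45 to 0.81 and 0.40 to 0.66 over the 6 fits). Once the length and GC trend was taken out, the calls of Jak1, Jak2, Il10rb and Ptpn2 were lost (log2 fold changes 0.34, 0.30, 0.55 and 0.32). The phosphatases Ptpn6, abundant in blood cells, and Ptpn2 rose by 2.36 (adjusted p = 0.00147) and 1.11 (adjusted p = 0.00346) on the log2 scale.

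In culture 1 of 15 receptor and signalling genes rose and 2 fell, where 8.94% of all genes tested rose and 10.6% fell, so these counts are near those of all genes. Ptpn2 had a log2 fold change of 0.44 (adjusted p = 0.0137), the feedback inhibitor Socs3 one of -0.43 (adjusted p = 0.0228) and Stat3 one of -0.35 (adjusted p = 0.03999). Each call was lost without WT replicate 1, WT replicate 2 or KO replicate 2, that of Socs3 also without KO replicate 3 and that of Stat3 also without KO replicate 1. Over the 6 fits the log2 fold change ran from 0.37 to 0.57 for Ptpn2, -0.50 to -0.34 for Socs3 and -0.44 to -0.24 for Stat3. Ifnar1, Ifnar2 and Ifngr2 had log2 fold changes of -0.21, -0.22 and -0.24, Ifngr1 one of 0.14 and Il10rb one of -0.27. None of these 5 passed. Jak1, Jak2 and Tyk2 had log2 fold changes of 0.089, -0.12 and -0.38 and did not pass.

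Genes of nucleic acid sensing upstream of interferon were higher in 17 of 26 and lower in 4 in cKO WAT, with a median log2 fold change of 0.97. Of all genes tested in WAT 28.2% rose and 24.2% fell. The endosomal RNA receptor Tlr8 rose the most of the 5 with the smallest p, at 1.44, 0.876 and 2.19 CPM in WT and 44.1, 22.97 and 47.3 CPM in cKO (log2 fold change 4.66, SE 0.42, adjusted p = 0.000576). The kinase Ikbke, the factor Irf5 and the RIG-I ubiquitin ligase Trim25 had log2 fold changes of 2.23, 2.73 and 1.08 (adjusted p = 0.000486, 0.000919 and 0.000825). Rnaseh2c, a subunit of the RNase H2 that removes RNA from DNA, fell, at 45.96, 43.4 and 42.03 CPM in WT and 23.2, 20.4 and 18.8 CPM in cKO (log2 fold change -1.07, SE 0.13, adjusted p = 0.000892). In culture 5 of these 26 fell and 0 rose by edgeR, where 10.6% of all genes tested fell and 8.94% rose. At an unadjusted p under 0.05, 7 fell and 1 rose. The RNA editing enzyme Adar and the nucleic acid sensor Zbp1 had log2 fold changes of -0.61 (adjusted p = 0.00497) and -0.81 (adjusted p = 0.0109). Trim25, the chaperone of endosomal receptors Unc93b1 and the adaptor Ticam1 had log2 fold changes of -0.46, -0.42 and -0.41 (adjusted p = 0.0133, 0.0201 and 0.0394). All 5 culture calls were lost without WT replicate 2, with log2 fold changes of -0.47 for Adar, -0.54 for Zbp1, -0.33 for Trim25, -0.36 for Unc93b1 and -0.33 for Ticam1. Zbp1 also lost its call without KO replicate 2, Trim25 without KO replicate 1, Unc93b1 without WT replicate 1 or KO replicate 3, and Ticam1 without any single library but WT replicate 3 (log2 fold changes of -0.99 to -0.54, -0.52 to -0.33, -0.53 to -0.32 and -0.52 to -0.33 over the 6 fits).

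A longer list of further interferon-induced genes, outside the 37, had 38 of 72 higher and 3 lower in cKO WAT, with a median log2 fold change of 0.86. Of all genes tested in WAT 28.2% rose and 24.2% fell. Over the 74 of the list with WAT counts, the summed level was instead lower in cKO. It was 5252 to 6071 CPM in WT and 3519 to 4982 CPM in cKO. Such a sum is weighted to abundant genes, and Ifi27l2a alone took 1246 to 1766 CPM of it in WT and 341 to 880.2 CPM in cKO. The 5 with the smallest p were the Schlafen genes Slfn5 (1.70) and Slfn8 (3.22), the p200 genes Ifi203 (2.83) and Ifi205 (2.56), and Trim34a (1.35), with adjusted p from 0.000434 to 0.000781. In culture 4 of 62 rose and 8 fell, where 8.94% of all genes tested rose and 10.6% fell, so these counts are near those of all genes. The list's median log2 fold change there was -0.21, against -0.02 over all genes tested. Rnf213, a large ubiquitin ligase, stood at 79.8, 89.8 and 73.8 CPM in WT and 41.8, 38.9 and 55.8 CPM in KO (log2 fold change -0.83, SE 0.13, adjusted p = 0.000183), against 79.7, 82.2 and 87.1 CPM in WT and 135, 123 and 129 CPM in cKO in WAT (log2 fold change 0.64, SE 0.11, adjusted p = 0.00321), a WAT call lost once the length and GC trend was taken out (0.31). Lgals3bp, Helz2 and Trim30d had log2 fold changes of -0.68, -0.65 and -0.97 in culture (adjusted p = 0.000552, 0.00565 and 0.00746). Helz2 lost its call without WT replicate 2 (-0.54) and Trim30d without KO replicate 2 (-0.77). Ifi27l2a, a mitochondrial protein gene, went the opposite way from most, at 1387, 1246 and 1766 CPM in WT and 514, 880.2 and 341 CPM in cKO in WAT (log2 fold change -1.34, SE 0.35, adjusted p = 0.0155) and 199.6, 244 and 215 CPM in WT and 324, 342 and 268 CPM in KO in culture (log2 fold change 0.50, SE 0.12, adjusted p = 0.00468). In WAT its call was lost with scaling by library size alone (-0.68) and without WT replicate 3 or cKO replicate 1 (log2 fold change -1.80 to -1.08 over the 6 fits).

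Markers of cell types were read in the same WAT libraries, where 28.2% of all genes tested rose and 24.2% fell. Macrophages themselves express many of the interferon-stimulated genes. Of 24 macrophage markers 20 rose, and their summed level was 796 to 1242 CPM in WT and 3932 to 7932 CPM in cKO. Cd68 stood at 20.9, 20.9 and 21.8 CPM in WT and 473, 232 and 547 CPM in cKO (log2 fold change 4.30, SE 0.33, adjusted p = 0.000476). Within the cKO group, replicate 2 had the lowest macrophage sum (3932 CPM) and a member sum of 2213 CPM. Replicate 3 had the highest macrophage sum (7932 CPM) and the lowest member sum, 1719 CPM. Fibroblast and preadipocyte markers were higher in 11 of 15, with sums of 3335 to 4297 CPM in WT and 7678 to 12257 CPM in cKO. Mature adipocyte markers were lower in 15 of 18, with sums of 77069 to 80703 CPM in WT and 12975 to 29589 CPM in cKO. Markers of plasmacytoid dendritic cells, a main source of type I interferon, were higher in 5 of 11, where 28.2% of all genes tested rose. This list shares Bst2 with the members and Irf8 with the nucleic acid sensing genes. Its sums were 206 to 276 CPM in WT and 353 to 393 CPM in cKO. The defining marker of these cells, Siglech, stood at 0.305, 0 and 0.785 CPM in WT and 1.14, 1.06 and 1.34 CPM in cKO. Markers of T and NK cells, sources of interferon gamma, rose in 1 of 17, with sums of 60.5 to 105 CPM in WT and 62.1 to 114 CPM in cKO. B and plasma cell markers rose in 2 of 8, with sums of 29.1 to 39.5 CPM in WT and 112 to 248 CPM in cKO, and endothelial markers were lower in 6 of 12 and higher in 1. None of these lists had a marker at 0 in all libraries of a WAT group. The part of these cell types in the change of the members was not tested.

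In culture the macrophage marker sums were 5162 to 5677 CPM in WT and 3617 to 4236 CPM in KO, with 10 of 24 markers lower and 1 higher. Of all genes tested in culture 10.6% fell and 8.94% rose. Cd68 stood at 665, 753 and 565 CPM in WT and 403, 438 and 375 CPM in KO (log2 fold change -0.71, SE 0.12, adjusted p = 0.000355), while Adgre1, which encodes the macrophage surface protein F4/80, stood at 154, 165 and 178 CPM in WT and 165, 177 and 151 CPM in KO (adjusted p = 0.964). KO replicate 2, the library lowest for most members, had the highest macrophage sum of its group, 4236 CPM, and WT replicate 2, the highest for most members, had the highest of its group, 5677 CPM. Mature adipocyte markers were higher in 7 of 17 and lower in 2, and fibroblast markers lower in 6 of 14 and higher in 1. Plasmacytoid dendritic cell markers were lower in 3 of 6, a count that includes the member Bst2. The defining Siglech was at 0 or near it, 0.169, 0 and 0.0792 CPM in WT and 0, 0 and 0.0487 CPM in KO. Of 18 T and NK cell markers 11 had no read in any culture library. The part of these cell types in the culture result was not tested either.

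**Figure D4:**
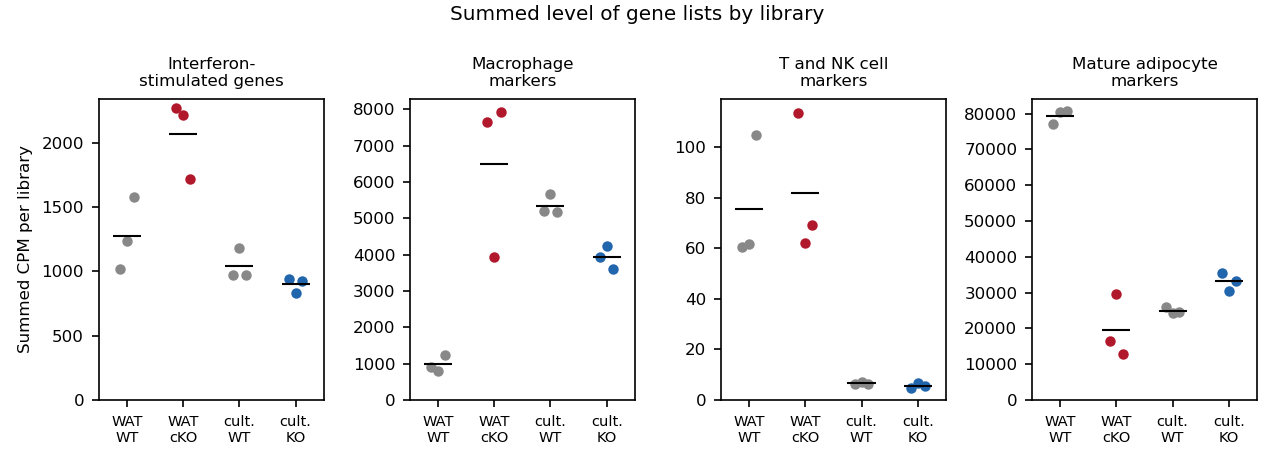
Summed CPM per library (axes start at 0) of the 35 interferon-stimulated genes and of the macrophage, T and NK cell and mature adipocyte marker lists in the 4 groups, 1 point per library. In WAT the macrophage sum is 796 to 1242 CPM in WT and 3932 to 7932 CPM in cKO, and in culture 5162 to 5677 CPM in WT and 3617 to 4236 CPM in KO.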

How the data were processed

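RNA-seq gene counts were analysed for 12 libraries, 3 in each of 4 groups. The deposited values are raw counts of reads per gene, 1 table for WAT and 1 for culture. Per the submitters' processing notes, FastQC 0.11.2, cutadapt 1.11, HISAT2 2.1.0 and the GRCm38 build were used. Per the labels' protocols, total RNA was extracted with TRIzol and libraries were made with an MGIEasy mRNA kit. The counting tool, its strand setting and the annotation are not stated in the labels or notes, so overlapping genes and close copies (Oas1a, Ifit3, Ifi204, Gbp, Igtp and Irgm1) are uncertain.

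Genes were filtered (filterByExpr, minimum count 10), scaled by TMM and tested per table with the edgeR 4.0.16 quasi-likelihood test in R 4.3.3, with Benjamini-Hochberg adjustment over all genes tested and a threshold of 0.05. The interaction was tested in 1 fit over both tables. The 37 members, the gene lists and the tests were chosen with earlier results of these data known. Values per library were printed for the 14 members with the smallest p and each lower one in WAT, each called one in culture, the first 8 by interaction p, and the 4 highest and 4 lowest by mean CPM. From each list of interferon genes the 5 with the smallest p, the expressed receptors, Jak1, Jak2 and Tyk2 were named, and 1 further gene is not reported here. Other values were chosen after they were seen. Alternatives were RLE size factors, library size alone, no filter, the replicate block, DESeq2 1.42.0, limma 3.58.1 (voom), a length and GC trend removed (lengths matched for 85.8% of genes in WAT and 98.0% in culture), copies summed, 1 fit over all groups, a 2-fold minimum and each library left out. The code was tested on simulated data. Promoter windows and gene positions are from RefSeq (GRCm38.p6). Totals of 10863158 to 33997204 counts set the precision.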

Additional observations from a re-analysis of the deposited data

Results flagged for a closer look

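The knockout effect differed between WAT and culture, by the interaction test in edgeR, for 32 of the 35 members, which is the reason they are listed here. Each value is the log2 fold change in WAT minus that in culture, and 27.7% of all genes tested were higher and 21.1% lower in the same test. In order of p, smallest first, the differences began with Ifi204 3.55, Oas2 4.08, Oasl1 3.63, Trim30a 3.16, Ifit2 3.82, Oas1a 2.63, Ifit1 3.30, Parp14 1.57, Stat2 1.52 and Ifi44 3.67. Next in order of p came Oas3 4.28, Ddx58 1.24, Oasl2 2.32, Rsad2 3.16, Ifih1 1.40, Gbp3 1.65, Eif2ak2 1.15, Irf7 1.56, Dhx58 1.32 and Cmpk2 1.96. The remaining higher ones were Ifitm3 0.90, Isg15 1.79, Usp18 1.68, Gbp7 1.42, Rtp4 1.07, Xaf1 0.77, Irf9 0.55, Ifit3 1.54 and Irgm1 0.73. The effect was lower in WAT than in culture for Igtp -1.39, Isg20 -0.87 and Ifi35 -0.64. Tissue and culture differ in age, cell makeup, depth and deposited table as well as in setting, and these cannot be told apart. Single libraries were not tested as outliers, since each group holds 3.

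Of these calls, 5 were lost in some of the 12 fits that each left out 1 library. Irgm1 passed in 3 of the 12, with differences of 0.55 to 0.98, Ifi35 in 6, with -0.76 to -0.48, and Irf9 in 6, with 0.46 to 0.66. Ifit3 passed in 8, with 1.20 to 1.86, and Xaf1 in 10, with 0.64 to 0.91. Xaf1 lost its call without replicate 2 of either culture group. Ifit3 lost it without WT replicate 1 or cKO replicate 1 of WAT, or replicate 2 of either culture group. Irf9 lost it without WT replicate 1 or 2 of WAT, WT replicate 1 or 2 of culture, or KO replicate 2 or 3 of culture. Ifi35 lost it without WT replicate 2 or 3 or cKO replicate 1 or 3 of WAT, or without WT replicate 3 or KO replicate 1 of culture. Irgm1 kept its call only without WT replicate 3 or cKO replicate 3 of WAT, or WT replicate 1 of culture.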

How the results depend on the processing

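In WAT the number of members that rose was 20 to 30 under all alternatives with no fold minimum and 18 with one of 2-fold. The number that fell was 3, and 0 with scaling by library size alone, 1 with a 2-fold minimum and 1 to 4 when 1 library was left out. In culture the number that fell was 13, and 0 in 1 fit over all 4 groups and 4 with a 2-fold minimum. It was 0 without replicate 2 of both culture groups and 4 to 15 when 1 library was left out. The highest count, 18, came from taking out the trend over length and GC content, where 9.04% of all genes fell. The number that rose was 0, and 0 to 1 when 1 library was left out. For the interaction the number with a lower effect in WAT was 3, and 0 with library size alone and 1 once the length and GC trend was taken out. The cause of these differences was not tested. Counts of the other lists also moved. In WAT the further induced genes had 29 to 60 higher (38 reported) and 0 to 5 lower (3), receptors and signalling 4 to 12 higher (10) and 1 to 4 lower (3), and nucleic acid sensing 13 to 22 higher (17) and 1 to 4 lower (4). In culture the further induced genes had 0 to 6 higher (4) and 0 to 15 lower (8), receptors and signalling 0 to 1 higher (1) and 0 to 5 lower (2), nucleic acid sensing 0 to 1 higher (0) and 0 to 7 lower (5), and macrophage markers 0 to 1 higher (1) and 2 to 14 lower (10).

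No label says that a replicate number marks shared animals or a shared batch, so the numbers were not taken as pairs. The deviations of same-numbered libraries correlated over genes at -0.35, 0.02 and -0.23 in WAT and at 0.22, 0.04 and 0.27 in culture. Those of differently numbered libraries ran from -0.048 to 0.38 in WAT and from -0.26 to 0.085 in culture. With the replicate block, 24 members rose and 2 fell in WAT, 1 rose and 15 fell in culture, and the interaction had 27 higher and 3 lower. Over all genes tested in culture the block moved the share that rose from 8.94% to 14.4% and the share that fell from 10.6% to 16%.

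Signs that turned, other than those of Ifi35 in WAT and in the interaction, were of estimates that were not called in the reported fit. With scaling by library size alone the log2 changes in WAT were Irf1 0.17, Ifi35 0.16, Gbp2 0.23, Stat3 0.41 and Lgals3bp 0.38. In culture they were Isg20 -0.040 and Eif2ak2 -0.030. The interaction values were Irf1 0.24, Ifi35 0.012 and Gbp2 0.35. In culture voom gave Isg20 -0.0048, and no filter gave Adgre1 0.010. The length and GC trend gave Irf9 0.056, Ifi204 -0.034, Eif2ak2 -0.053, Irf5 0.036 and Ifi205 -0.21. Without replicate 2 of both culture groups the values were Ifit3 0.081, Isg15 0.24, Usp18 0.13, Irf9 0.069, Ifih1 0.019, Xaf1 0.034, Gbp2 0.036, Irgm1 0.073, Ifi203 0.14 and Ifi205 -0.023.

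When 1 library was left out the ranges that crossed 0 were Bst2 -0.12 to 0.35 in WAT and, in culture, Isg15 -0.53 to 0.017, Irf1 -0.11 to 0.021, Irf9 -0.12 to 0.036, Irgm1 -0.24 to 0.036, Isg20 -0.11 to 0.14, Eif2ak2 -0.083 to 0.12, Gbp3 -0.021 to 0.25, Ifi205 -0.0022 to 0.27, Trim34a -0.045 to 0.38, Adgre1 -0.066 to 0.051, Ifi203 -0.24 to 0.024, Jak2 -0.23 to 0.024 and Slfn5 -0.25 to 0.034. With 3 libraries a group and no record of separate animals, the tests cannot tell animal from technical spread. Depth limits the ligand genes and the lowest members in culture, such as Ifi44 and Cmpk2.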
